A study of Homo sapiens with 8 samples.

Results

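The CTCF sites described here are the control-cell CTCF peaks of human chromosome 19 that lie outside its clusters of zinc-finger genes. A member was any peak of the control list on chromosome 19 (build hg19) whose centre fell outside 5 intervals, at 19.8 to 24.5, 36.7 to 38.4, 43.9 to 45, 52.3 to 54 and 56 to 59.13 Mb. There were 1476 members among the 47470 control peaks of the series, and 110 further peaks of chromosome 19 lay inside the intervals. A member was called kept if any base of it was covered by a peak of the CBL0137-treated list and lost if none was, so a lost peak is one missing from a thresholded list and not a measured absence of CTCF.

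The peaks came from ChIP-seq of HT1080, an established human fibrosarcoma line of connective tissue that the labels mark as ras-positive. Control cells were compared with cells exposed to the curaxin CBL0137, a DNA-binding anticancer compound, at 3 µM for 6 h, and no other allele or agent separated the groups. Each condition had 2 anti-CTCF ChIP libraries and 2 input libraries from 2 biological replicates, 8 libraries in all, from which the authors made 1 peak list per condition. No value per replicate was analysed here, so the intervals printed below (95%, Wilson for a share, Newcombe for a difference) cover counting error only and no p-value is given. The lists hold no read counts, so the number of reads behind the fold enrichment of a given peak is not known here.

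CTCF is a DNA-binding protein with a row of zinc fingers that reads a long, GC-rich site whose core is conserved across vertebrates. Cohesin extruding a loop of chromatin halts at CTCF sites, and in this way CTCF bounds loops and topologically associating domains and keeps enhancers apart from promoters outside their domain. Chromosome 19 is the most gene-dense and among the most GC-rich of the human chromosomes, and its large arrays of KRAB zinc-finger genes, which mostly encode repressors of transposable elements, form blocks of a different chromatin type. The intervals did remove most of these arrays: 184 of the chromosome's named ZNF and ZFP genes lay inside them and 70 outside, the latter among 1146 protein-coding genes over 43.3 Mb.

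The sequences of 6 members are printed to show the CTCF core at strong kept and strong lost sites. The CTCF core consensus, 12 bases long, was searched by its name's standard letters on both strands within 400 bp around each peak centre, with at most 1 mismatch. Below are the 3 strongest kept members that held such a match and 2 of the strongest lost ones, each read 5′ to 3′ in the direction of the match, with the matched 12 bases in capitals and 24 bases on either side.
SH3GL1 (kept, chr19:4400606-4400665, minus strand): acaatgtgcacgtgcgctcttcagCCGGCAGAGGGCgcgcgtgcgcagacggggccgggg
KCTD15 (kept, chr19:34269115-34269174, plus strand): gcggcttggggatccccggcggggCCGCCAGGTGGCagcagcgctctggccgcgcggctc
CYP4F8 (kept, chr19:15695617-15695676, plus strand): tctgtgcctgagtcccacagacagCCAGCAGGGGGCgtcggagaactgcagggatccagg
ZNF507 (lost, chr19:32831337-32831396, plus strand): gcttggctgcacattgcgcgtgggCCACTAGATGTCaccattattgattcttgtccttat
NLRP12 (lost, chr19:54312090-54312149, plus strand): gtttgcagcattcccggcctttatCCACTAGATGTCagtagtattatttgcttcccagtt

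Both lost sites carried the same 12 letters, ccactagATgtc, while the 3 kept sites each carried different ones. The kept sites lay 106 bp from the start of SH3GL1, which encodes the endocytic protein endophilin A2, 17713 bp from the start of KCTD15, and 30379 bp from that of CYP4F8, a fatty-acid hydroxylase of the cytochrome P450 family. Their control fold enrichments (ChIP over input, as the peak caller gave them) were 83.8, 81.5 and 81.0. The lost sites lay between genes 5150 bp from the start of the zinc-finger gene ZNF507 and in an intron of NLRP12, a regulator of inflammation, with fold enrichments of 47.4 and 44.02. The strongest lost member of all held no consensus match. It covered a coding exon shared by the spans of LGI4, a secreted protein needed for myelination, and FXYD1, a regulator of the sodium pump, with a fold enrichment of 59.6, and the 120 bases around its centre are shown for contrast without capitals.
LGI4 and FXYD1 (lost, chr19:35632341-35632460, plus strand): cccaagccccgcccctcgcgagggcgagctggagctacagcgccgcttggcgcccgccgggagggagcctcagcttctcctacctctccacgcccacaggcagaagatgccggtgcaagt

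The first comparison asked how many of these sites lost their peak under CBL0137, set against the rest of the genome. CTCF peaks in the gene-rich body of chromosome 19 were lost less often than peaks elsewhere. Of the 1476 members, 305 were lost and 1171 kept, a lost share of 20.7% (18.7 to 22.8), against a background of 42.9% over the 47442 control peaks of chromosomes 1 to 22 and X. On the chromosomes other than 19 the lost share was 43.7% of 45856 peaks, a difference of -23.0 percentage points (-25.0 to -20.8). The other gene-dense, GC-rich chromosomes, 17 and 22, lost 31.9% of their 2897 peaks, which put the members lower by a difference of -11.3 points (-13.9 to -8.55). Inside the zinc-finger clusters 30 of 110 peaks were lost, or 27.3% (19.8 to 36.3), and the difference of -6.61 points had an interval from -15.8 to 1.14, so members and clusters were not distinguishable at this number of peaks. When a kept peak had to share more than 50% of the larger peak, the difference was -9.93 points (-19.5 to -1.08), whose interval lay off 0.

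Members were stronger, wider and set in more GC-rich DNA than peaks of the other chromosomes. The difference in lost share was smaller at equal values of each. The median control fold enrichment was 34.8 for members and 28.5 for peaks of the other chromosomes, the median width 350 and 300 bp, and the median GC content of the surrounding 100 kb 52.1 and 42.1%. Among peaks of equal fold enrichment the difference in lost share shrank to -13.8 points (-15.6 to -11.9), among those of equal width to -15.5 points, and among those of equal surrounding GC content to -7.25 points (-9.46 to -5.04). Within 5 by 5 groups of fold enrichment and GC content it was -5.50 points (-7.39 to -3.62). Many members fell in the highest group of GC content, so GC content was only roughly equal in these comparisons. Whether strength or base composition had a part in the loss itself was not tested.

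**Figure D1:**
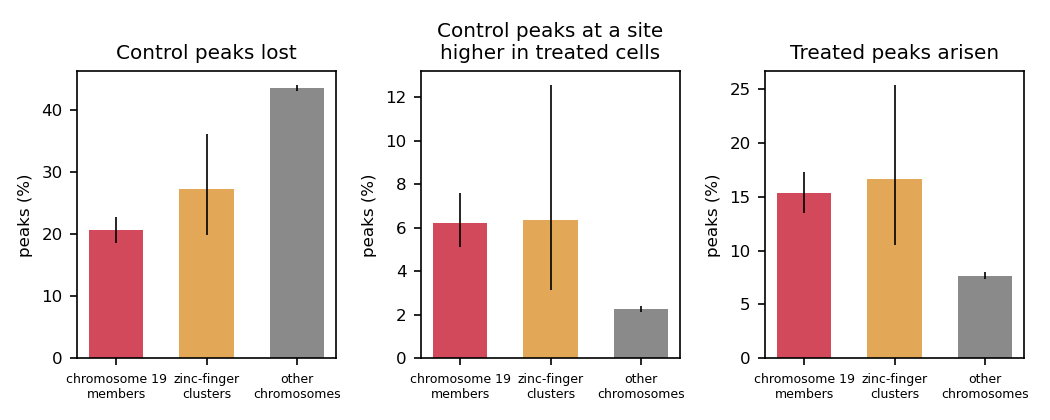
Share of peaks (%, vertical axes, with 95% Wilson intervals as lines) for the chromosome 19 members, the zinc-finger clusters and the other chromosomes. The members lost 20.7% of their control peaks, the clusters 27.3% and the other chromosomes 43.7%. Control peaks at a site higher in treated cells made up 6.23, 6.36 and 2.28%, in the same order. Treated peaks with no control peak made up 15.3, 16.7 and 7.67%.

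Within the members, loss ran along peak strength. Kept members had a median control fold enrichment of 38.0 (quartiles 28.7 and 47.5) and lost members one of 20.9 (14.5 and 28.9), and a kept member had the higher value in a share of 0.832 of all kept and lost pairs. In the weakest of 5 equal strength classes of members, with fold enrichments from 6.93 to 21.9, 159 of 295 were lost (53.9%). In the strongest class, from 47.5 upwards, 5 of 296 were lost (1.69%, 0.724 to 3.89). In each of these classes the other chromosomes lost a larger share, from 77.5% in the weakest to 8.21% in the strongest, and none of the intervals met. For the other chromosomes the weakest class reached down to a fold enrichment of 1.74 and the strongest up to 119.7.

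**Figure D2:**
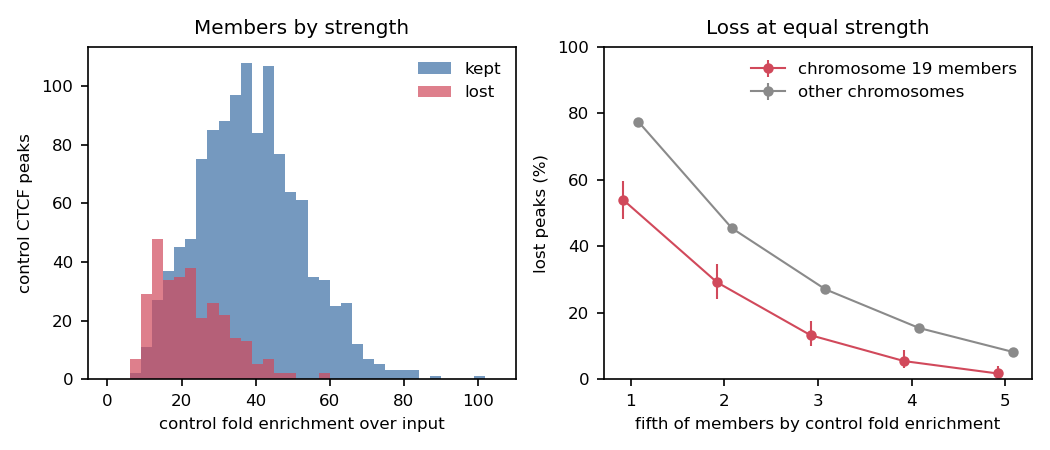
Left, number of kept and lost members (vertical axis) by control fold enrichment over input (horizontal axis). Right, lost share (%, with 95% Wilson intervals) in 5 equal classes of members by fold enrichment, for members and for peaks of the other chromosomes. The inner borders were the same for both, and the end classes were open for the other chromosomes. The share fell from 53.9 to 1.69% in members and from 77.5 to 8.21% elsewhere.

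The 5 strongest lost and the 5 weakest kept sites lay in or nearest to genes of mixed function. After the LGI4 and FXYD1 site, the strongest lost members were a site 67302 bp from the start of TRPM4, a calcium-activated cation channel, with a fold enrichment of 58.4, and one 60497 bp from the ubiquitin ligase gene ZNRF4 with 48.6. They were followed by a site in an intron of GPATCH1 (48.4) and one 9857 bp from SIGLEC10, a sialic-acid-binding inhibitory receptor of immune cells (47.7). The 5 weakest kept members had control fold enrichments from 8.91 to 9.72. They lay in the coding sequence of the immediate-early gene IER2, in an intron of the glutamine transporter gene SLC1A5, in an intron of MYO9B, in a noncoding exon near NANOS3 and in a coding exon of MYO1F. In the treated list the fold enrichment at these 5 sites ran from 12.9 at IER2 to 27.2 at MYO1F. Their percentiles were 11.5 to 48.5 in that list and 1.64 to 2.71 in the control list. The sites were picked for low control values and had to hold a treated peak, so higher treated percentiles follow largely from the choice.

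The strongest kept sites held high ranks in both lists, though not without exception. The strongest member, in an intron of CSNK1G2, a casein kinase gene, had a control fold enrichment of 100.6 and a treated one of 58.3, at percentile 94.6 of the treated list. The sites near KCTD15 and PIK3R2, which encodes a regulatory subunit of phosphoinositide 3-kinase, stood at percentiles 99.7 and 99.3 of the treated list. The site in an intron of NFIX, a nuclear factor I gene, stood at percentile 98.04 of the control list and 35.0 of the treated list, and the one in ERCC1, a nucleotide excision repair gene, at 98.1 and 34.1. Over all 1171 kept members the median change in percentile was -4.11 and 42.7% ranked higher, against -9.49 and 34.8% for the 25837 kept peaks of the other chromosomes. Kept members had become narrower in 48.8% of cases and wider in 23.4%, against 63.1 and 14.6% elsewhere. The lists differ in length and make-up, so a percentile gives a place in its own list and not a change in CTCF.

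The core sequence was searched in every member to see what kept and lost sites held. Kept sites carried a recognisable CTCF core more often than lost ones. With at most 1 mismatch allowed, the core was present in 696 of 1171 kept members (59.4%) and 96 of 305 lost members (31.5%), a difference of 28.0 points (21.8 to 33.6), and it was 23.3 points (11.4 to 35.3) among members of equal fold enrichment. Windows of the same length 10 kb away held a match in 5.36% of cases, and 49.0% of all control peaks held one. The spelled motif CCANNAGNNGGC, which overlaps the consensus and was searched exactly on both strands, was in 30.7% of kept and 10.8% of lost members, in 2.03% of the windows 10 kb away and in 23.3% of all control peaks.

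The lost share rose with each mismatch from the consensus. It was 5.14% (13 of 253) for members with an exact match, 15.4% (83 of 539) with 1 mismatch, 25.8% (128 of 496) with 2, and 43.1% (81 of 188) with more. The strand of the match made no difference beyond the intervals, with 11.2% lost on the plus strand (8.50 to 14.6) and 13.1% on the minus strand (10.1 to 16.9).

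After the printed sequences had been seen, the letters of the matched core were also counted. Members whose 12 matched bases held at least 4 A or T were lost in 70 of 299 cases (23.4%), and those with at most 3 in 26 of 493 (5.27%). The difference of 18.1 points (13.1 to 23.5) was 14.9 points at equal fold enrichment, 17.7 at equal surrounding GC content and 17.4 at equal numbers of mismatches. The other chromosomes showed a difference of 18.3 points (17.1 to 19.4) between the same classes.

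The letters at bases 8 and 9 of the core, counted from 1 at the 5′ end of the match, were counted in the same way. Where both were G, 10 of 288 members were lost (3.47%). With A then G the share was 11.1% (29 of 262), with G then T 18.8% (25 of 133), and with A then T 33.0% (29 of 88). The last class exceeded the first by 29.5 points (20.1 to 40.0), by 26.5 points (16.4 to 36.5) at equal fold enrichment, and by 30.3 points (28.5 to 32.1) on the other chromosomes, where the 4 shares were 15.6, 26.5, 30.0 and 45.9%. The most frequent exact words among members were ccaccagAGggc, kept at all 44 of its sites, ccaccagGGggc, kept at all 34, and ccagcagGGggc, kept at all 28. The word of the lost sites printed above, ccactagATgtc, was lost at 6 of its 10 sites on chromosome 19 and at 152 of 254 (59.8%) elsewhere, with control fold enrichments of 22.8 to 47.4 at the 10 sites. This word was taken from the strongest lost members with a match, at ZNF507, BRME1 and NLRP12. Its count on chromosome 19 and the class with A then T include those sites. Sites that share a word may descend from copies of 1 sequence and are not independent.

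**Figure D3:**
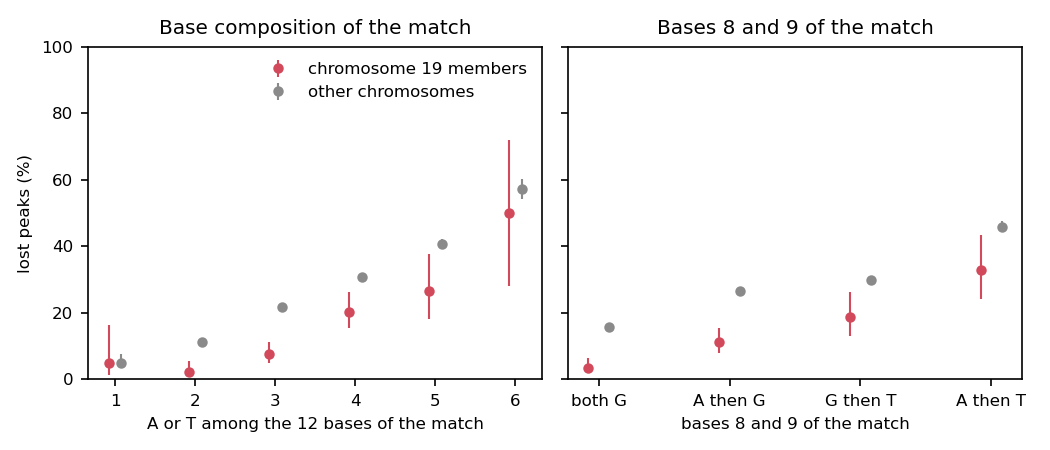
Lost share (%, vertical axes, with 95% Wilson intervals) of members and of peaks of the other chromosomes by the number of A or T among the 12 matched bases (left) and by bases 8 and 9 of the match (right). In members it rose from 3.47% where both bases were G to 33.0% with A then T, and the other chromosomes rose from 15.6 to 45.9% over the same classes.

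The authors' direct comparison of the conditions gave a second set of positions from the same libraries, sites where CTCF signal was higher in control or higher in treated cells. Sites of the higher-in-control kind covered 193 of 305 lost members (63.3%, 57.7 to 68.5) and 200 of 1171 kept ones (17.1%), against a background of 51.2% of all control peaks, and 112 lost members lay at neither kind of site. Members as a whole lay at such a site in 26.6% of cases, against 52.1% on the other chromosomes. The share was 25.5% in the zinc-finger clusters and 41.4% on chromosomes 17 and 22. Of the kept members 92 lay at a site higher in treated cells, or 6.23% of all members, where the background was 2.41%. In the zinc-finger clusters this share was 6.36%, and on chromosomes 17 and 22 it was 3.69%. The difference from the other chromosomes in that share was 3.95 points (2.82 to 5.31) and 1.48 points (0.173 to 2.79) at equal surrounding GC content. The chromosome's sites outside the clusters took in 208 of the genome's 2160 sites higher in treated cells (9.63%) and 400 of 24693 higher in control cells (1.62%), while holding 3.11% of control peaks and 4.69% of treated peaks.

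Treated cells were then searched for the opposite change. In the same stretches of chromosome 19 they had peaks that no control peak overlapped, called arisen. There were 212 among 1385 treated peaks (15.3%, 13.5 to 17.3), against 7.67% on the other chromosomes and a background of 8.05%. The zinc-finger clusters of the same chromosome had a similar share, 16 of 96 treated peaks (16.7%, 10.5 to 25.4). The difference between the members' stretches and the other chromosomes was 7.64 percentage points (5.81 to 9.66). It was 1.61 points (-0.422 to 3.64) at equal GC content of the surrounding 100 kb. Arisen peaks were weaker than the other treated peaks of the region, with a median fold enrichment of 17.2 against 35.5, and 108 of them lay at a site higher in treated cells. Of all treated peaks of the region 14.7% lay at such a site, where the background was 7.25%. The strongest arisen peaks lay in a coding exon of MAN2B1, a lysosomal mannosidase gene (fold enrichment 46.4), in an intron of KDM4B (40.1) and in an intron of MARK4, a microtubule-affinity kinase gene (35.1).

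Arisen peaks were most numerous in the window at 1 to 2 Mb, near the short-arm end. It held 28 of them, 35.4% of its treated peaks, and lost 5 of its 56 control peaks. The first window, at 0 to 1 Mb, held 11 (28.2%) and lost 3 of 31. The windows at 2 to 3 Mb (27.5%) and 18 to 19 Mb (19.3%) also held 11 each. Shares above that of the first window were also found at 7 to 8 Mb (30.8%), 19 to 20 Mb (30.3%) and 32 to 33 Mb (2 of 6). Over the 45 windows the arisen share and the lost share had a Spearman rho of 0.08.

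Along the chromosome, loss was spread over every stretch and was highest in a block of the proximal long arm. The 45 windows of 1 Mb that held members had 10 to 58 each, and each window held at least 1 lost member. The lost share ran from 7.41 to 71.4% with a median of 19.4%. In 4 windows the interval lay wholly above the share of all members and in 2 wholly below it. Short-arm members were lost in 18.4% of 770 cases and long-arm members in 23.1% of 706, a difference of -4.65 points (-8.80 to -0.508) that came to -0.669 points when both lists were restricted to a false discovery rate of at most 1e-05 and to -1.50 points when more than 50% of the larger peak had to be shared.

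**Figure D4:**
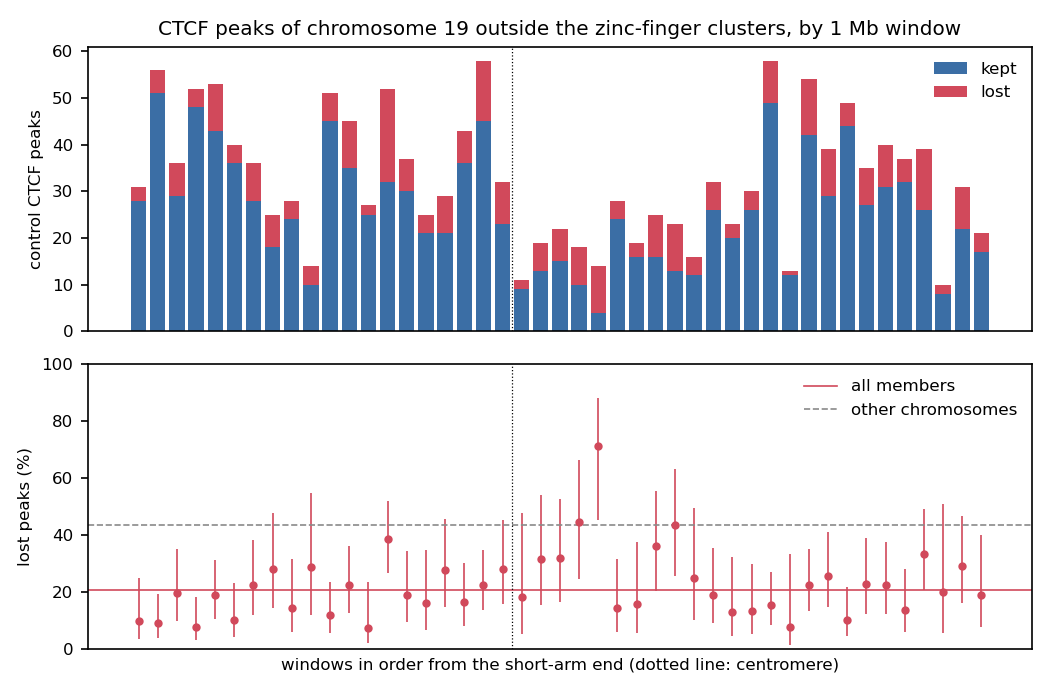
Top, number of kept and lost members (vertical axis) in each 1 Mb window of chromosome 19, in order from the short-arm end. Bottom, lost share per window (%, with 95% Wilson intervals), with lines at 20.7% for all members and 43.7% for the other chromosomes. The highest share was 71.4% and the lowest 7.41%.

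The window with the highest lost share was 32 to 33 Mb, where 10 of 14 members were lost (71.4%, 45.4 to 88.3). The longest lost run on the chromosome, 7 neighbours in a row, began in this window and ended just past it, over 252 kb (chr19:32809851-33061500), past ZNF507, DPY19L3, which encodes a C-mannosyltransferase, and PDCD5, a gene linked to programmed cell death. All 7 lay at a site higher in control cells, and their control fold enrichments were 13.04 to 47.4. Between genes and 120800 bp from the ZNF507 start stood a kept peak with a control fold enrichment of 87.3 and a treated one of 73.0. The next window, 31 to 32 Mb, lost 8 of 18 members (44.4%), and 6 of them in a row led up to and into TSHZ3, a zinc-finger homeobox gene active in smooth muscle and neuron development, over 370 kb. Its strongest lost member lay in a TSHZ3 intron (32.7) and its strongest kept one far from any start, 560152 bp from ZNF536 (45.3).

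Lost stretches were also found farther along both arms. The window at 36 to 37 Mb, with 39 protein-coding genes, lost 10 of 23 members (43.5%), the strongest of them 3560 bp from LRFN3, a synaptic adhesion gene, with a fold enrichment of 42.0. A kept peak of that window with 67.5 lay between genes, 10610 bp from the start of the lymphocyte repressor gene ZBTB32. It was at a site higher in control cells although it stood at percentile 99.7 of the treated list. The window at 13 to 14 Mb, with 19, lost 20 of 52 members (38.5%, 26.5 to 52.0). Inside it, 5 weak neighbours in NFIX, with fold enrichments of 9.44 to 18.8 over 24.6 kb and no consensus match, were lost in a row.

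The 3 windows with the lowest shares held kept peaks of high fold enrichment, as did the window with the highest share, at 32 to 33 Mb (87.3). At 12 to 13 Mb, where 18 of the 37 protein-coding genes were ZNF or ZFP genes, 2 of 27 members were lost (7.41%). The stronger of them lay in an intron of TRIR (27.7), while a peak 9034 bp from the start of BEST2, a chloride channel gene, was kept with 72.6. At 3 to 4 Mb 4 of 52 were lost (7.69%), the strongest 11476 bp from the start of NFIC (35.5). A peak 7348 bp from the start of SMIM24 was kept with 75.2. At 43 to 44 Mb 1 of 13 was lost, 2314 bp from the start of the adhesion gene CEACAM1 (40.1), and a kept peak of 67.7 stood 5864 bp from the same start. The intervals at 12 to 13 Mb (2.06 to 23.4%) and 43 to 44 Mb (1.37 to 33.3%) took in the share of all members. Those wholly below it were at 3 to 4 Mb (3.03 to 18.2%) and 1 to 2 Mb (3.87 to 19.3%).

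Kept members, being more numerous, also stood in longer rows. The longest kept run held 32 peaks over 720 kb (chr19:17559501-18279350), from TMEM221 past UNC13A, a synaptic vesicle priming gene, MAP1S and the cytokine-signalling kinase gene JAK3 to PIK3R2. Its control fold enrichments ranged from 15.2 to 79.5, 21 of the 32 peaks held a consensus match and 8 lay at a site higher in control cells. In this run the peaks near TMEM221, UNC13A and MAP1S included ones at a site higher in treated cells. A run of 29 kept peaks over 464 kb passed GAMT, an enzyme of creatine synthesis, MBD3, a subunit of the NuRD complex, the transcription factor TCF3 and KLF16, and 10 of its peaks were at promoters. A run of 21 covered 486 kb from ARHGAP35 past BBC3, which encodes the pro-apoptotic protein PUMA, to MEIS3.

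Window properties followed the lost share loosely. Over the 45 windows the Spearman rho with the lost share was -0.41 for median fold enrichment, -0.27 for GC content, -0.20 for members per Mb and -0.11 for protein-coding genes per Mb. Windows share borders, libraries and base composition with their neighbours, so these are descriptions. Members whose nearest control peak was over 5 to 20 kb away were lost in 109 of 631 cases (17.3%, 14.5 to 20.4), and those whose nearest was beyond 20 kb in 81 of 313 (25.9%, 21.3 to 31.0), intervals that did not meet. With a control peak within 5 kb the share was 115 of 532 (21.6%, 18.3 to 25.3).

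By annotation, most members lay within or between protein-coding genes and were lost at near the common rate. The share was 20.3% in introns (129 of 634), 20.2% between genes (96 of 475), 19.4% in coding exons (20 of 103) and 15.2% in untranslated exons (20 of 132). Exons of noncoding genes lost 16 of 38 members (42.1%, 27.9 to 57.8), the one class whose interval lay above the members' share. Promoters, taken as a peak centre within 1 kb of the start of a protein-coding gene, held 180 members of which 35 were lost (19.4%), a difference of -1.39 points from other members (-7.00 to 5.35). Of 1146 protein-coding genes, 753 had a member inside or within 5 kb, 493 of them only kept ones, 96 only lost ones and 164 both.

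Gene groups chosen for their places on the chromosome were then read against the 20.7% of all members. Together the listed genes had 400 members inside or within 5 kb, of which 80 were lost (20%, 16.4 to 24.2), and the interval of each of the 13 groups took in the members' share. Among groups with over 10 members, the lowest share was that of genes for matrix, adhesion and cytoskeleton, 5 of 48 (10.4%, 4.53 to 22.2), and the highest that of ribosomal protein genes, 5 of 16 (31.3%, 14.2 to 55.6).

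Chromatin and DNA maintenance genes lost 13 of 73 members (17.8%). KDM4B, a histone demethylase gene, kept all 9 of its members and the arginine methyltransferase gene PRMT1 and the elongation gene MLLT1 all 4 of theirs. The DNA methyltransferase gene DNMT1 kept all 3. The remodeller gene SMARCA4 lost 2 of 4 and the DNA ligase gene LIG1 2 of 3. The strongest kept sites of the group were the one at SH3GL1, which lies within 5 kb of CHAF1A, a chromatin assembly factor gene, and one 104 bp from the start of CARM1, an arginine methyltransferase gene (74.0). The strongest lost ones lay in introns of ERCC1 (24.7) and of SUPT5H, a subunit gene of the elongation factor DSIF (22.2).

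Transcription factor genes lost 17 of 74 members (22.97%), and NFIX alone accounted for 8 of these among its 14. Its paralogue NFIC kept all 7 within 5 kb, with control fold enrichments of 35.1 to 75.2, though not the lost site 11476 bp from its start named above. POU2F2, a lymphoid octamer factor gene, kept 9 of 10, and the AP-1 genes JUNB, JUND and FOSB kept their 1, 3 and 2. TSHZ3 lost both of its members.

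Among signalling and growth genes 13 of 79 members were lost (16.5%). STK11, the tumour suppressor kinase gene, kept 6 of 7, among them a peak of control fold enrichment 69.3 that stood at percentile 99.9 of the treated list. The elongation factor gene ELL lost 3 of 11, including one of 36.2. TGFB1, NOTCH3 and the erythropoietin receptor gene EPOR each kept all 4 of theirs. BBC3 kept its 1 member, of 45.5.

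Mitochondrial genes lost 6 of 25 members (24%) and ribosomal protein genes 5 of 16. A lost pair of peaks was shared by both groups, since RPS28 and the respiratory complex subunit gene NDUFA7 are neighbours, and these lay at 24.1 and 21.9, the latter 9 bp from the start of NDUFA7. RPL36 kept all 3 of its members, up to 64.3, and TIMM44 and ATP5F1D, genes of mitochondrial import and ATP synthesis, each kept all 4.

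Several gene families had a kept and a lost peak side by side. At TPM4, a tropomyosin gene, the peak 281 bp from the start was lost (27.2) and the one 4131 bp away kept (72.9 in control and 27.3 in treated cells). CEACAM6 lost 2 of 3 members, the stronger of them at 38.4, and its kept one stood at 54.9. At SIGLEC10 the lost peak stood at 47.7 and the kept one at 48.8. In the kallikrein protease family 3 of 6 were lost, among them a KLK10 intron site of 32.1 beside a kept KLK10 site of 38.8. The 2 members at the olfactory receptor gene OR10H1 were lost, the other 3 of that family kept, and the LILR and KIR families (3 members) and the CYP2 and CYP4F families (5 members) lost none.

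The zinc-finger genes outside the clusters did not stand apart from the rest. They lost 12 of 52 members (23.1%, 13.7 to 36.1), with strongest lost sites in introns of ZNF846 (36.9) and ZNF536 (33.4) and strongest kept ones at ZNF653 (63.0) and ZNF114 (59.99). ZNF536, a neuronal repressor gene, kept 8 of 11.

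**Figure D5:**
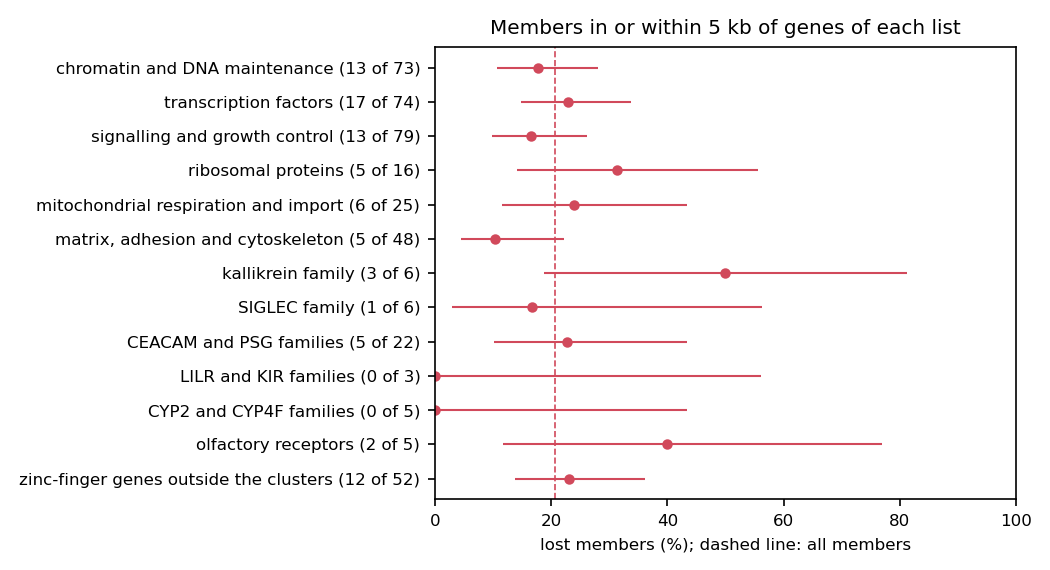
Lost share (%, horizontal axis, points with 95% Wilson intervals) of members inside or within 5 kb of the genes of each group, with lost and total members in brackets and a dashed line at the 20.7% of all members. Every interval takes in that line.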

How the data were processed

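CTCF ChIP-seq peak lists of control and CBL0137-treated HT1080 cells were used. Per the study's methods and the submitters' processing notes, the authors mapped reads to hg19 with Bowtie2 2.2.3, removed non-unique alignments and duplicates with SAMtools 1.5, and called peaks with PePr (sliding window 100 bp, p cutoff 0.05). Per the series' design text the lists were made from all 8 libraries, and there is 1 list per condition. The notes also name deepTools 2.0. The deposited lists give each peak's signal, a false discovery rate (q-value), a p-value and the fold enrichment as the ratio of ChIP to input. The 2 deposited lists of the direct comparison also hold the authors' own fold changes and p-values, which were not used; their positions alone were. A member counted as higher in a condition where any base overlapped such a site. Replicate signal was not analysed here.

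Peaks on chromosomes 1 to 22 and X were compared by overlap of at least 1 bp. Genes, exons and start sites came from a GENCODE annotation on hg19, without 601 protein-coding entries that have no symbol. Equal-strength and equal-GC differences were weighted over 10 groups of the control list (5 by 5 for both, 3 for contrasts within members). For arisen peaks the 10 groups were of the treated list. Scripts used Python 3.11.15, pandas 2.3.3, scipy 1.17.1 and pysam 0.24.0 and were tested on simulated data. Named sites were the 5 strongest lost and 5 weakest kept members, the extreme windows with their strongest sites, the strongest 2 lost and 2 kept sites per gene group, the longest runs and the 3 strongest arisen peaks. Other sites and genes were named after their values were seen. Some sites that meet these rules are not reported here. The members, gene groups and comparisons were chosen with earlier results of these data known. Alternatives varied the overlap, the list thresholds, the cluster borders and the peaks compared.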

Additional observations from a re-analysis of the deposited data

How the results depend on the processing

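Of 64 recomputed values, 52 stayed within the interval of the reported value and 12 moved outside it. Of the 64, 0 changed the sign of a difference whose interval lay off 0. When a peak counted as kept only if more than 50% of the larger peak was shared, the rule the study's methods state, members lost 28.3% and the median window 27.8%. With a false discovery rate of at most 1e-05 in both lists, a kept member had the higher fold enrichment in a share of 0.807 of pairs and 81.1% of lost members lay at a site higher in control cells. The consensus difference was 16.2 points for exact matches. The difference from the other chromosomes was -13.8 points at equal fold enrichment, -10.5 at equal GC content of 500 bp and -7.25 at that of 100 kb. Alternatives chosen after seeing the data gave -15.5 at equal width, -5.50 at equal fold enrichment and GC content, and, after the control list had been cut to its top peaks by fold, equal in number to the treated list, -15.2 together with a lost share of 9.92%. The difference from the clusters was -9.93 points (-19.5 to -1.08) under the more-than-50% rule, off 0 where the reported one was not. The promoter difference, whose interval took in 0, ran from -5.17 to 0.725 points. No paired analysis was possible because 1 list was used per condition and none per replicate, and for the same reason no replicate could be left out.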
